A study of Homo sapiens with 10 samples.

Results

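K562 is an established chronic myeloid leukaemia line with an erythroid character, and it was used here to follow the response to PcTF. PcTF, the polycomb-based transcription factor, is a synthetic fusion protein. It joins the polycomb chromodomain of CBX8, which binds trimethylated lysine 27 of histone H3 (H3K27me3), to a red fluorescent protein and the VP64 activation domain. The comparison was 1 library of K562 cells that received 2 µg of PcTF plasmid and grew for up to 48 h, against 1 library of mock-transfected K562 cells that received the transfection vehicle and no DNA. The plasmid expressed PcTF without an inducer. In the paper's flow cytometry only a minority of PcTF-transfected K562 cells were red-fluorescent, and fewer at 48 h than earlier. Each value is therefore an average over cells with and without PcTF, and the part of either in any difference was not tested. The libraries are called PcTF and mock cells below. No K562 library with a control plasmid was used, and an effect of PcTF and one of DNA uptake cannot be told apart. For comparison, PcTF-transfected and mock-transfected libraries of U-2 OS osteosarcoma and SK-N-SH neuroblastoma cells, taken up to 96 h after transfection, were read from their own tables. The members were genes with at least 1 FPKM (sequenced fragments scaled to gene length and to library depth) in either K562 library, and they numbered 11553 of 23245 genes. All values below are FPKM or the centred log2 ratio, which is the log2 of PcTF-transfected over mock FPKM after 0.1 FPKM was added to both, minus its median over the 9605 genes with at least 1 FPKM in both libraries (0.28). Just inside the floor lay APOC1P1, at 0 FPKM in PcTF and 1.00 FPKM in mock cells, and REEP1, at 0.237 and 1.00 FPKM; just outside lay LOC100507501, at 0.999 and 0.226 FPKM, and WASH2P, at 0.999 and 0.974 FPKM. With 1 library a side there was no replicate check and no test, and a gene was called higher or lower past 2-fold, a centred ratio of at least 1 in size.

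Polycomb proteins keep developmental genes silent through 2 complexes. Polycomb repressive complex 2 (PRC2) writes H3K27me3, and the chromodomain proteins of complex 1 (PRC1) bind it. K562 cells carry the BCR-ABL1 fusion and express embryonic and fetal globins. When amino acids are short, mammalian cells run the amino acid response: the kinase GCN2 phosphorylates eIF2α, translation slows, and the transcription factor ATF4 turns on genes for amino acid synthesis, tRNA charging and redox balance.

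The libraries differed broadly. In PcTF-transfected cells 2523 genes were at least 2-fold higher than in mock cells (21.8% of the kept genes) and 1909 were at least 2-fold lower (16.5%). These shares are the background for the counts of called K562 genes in every group below. Among genes with at least 1 FPKM in both, the counts were 1397 higher and 1372 lower. Without the centring, 71.1% of the called genes were higher, against 56.9% with it and 44.7% when the ratio was centred on 20 reference genes. The spread of the ratio over genes present in both libraries was wider in K562 (SD 1.01) than in U-2 OS (0.66) or SK-N-SH (0.44). The depth behind the values, estimated from the FPKM of 1 read, was about 7390000 normalised reads with PcTF and 4665000 in mock cells, and 14975 and 13246 genes were above 0. Exact 95% binomial intervals on these reads lay above 0 for 2257 of the 2406 higher genes that had a transcript model and below 0 for 1697 of 1746 lower ones, and such intervals cover counting error only. The genes were picked by ratios of the same reads, so these shares lend the calls no separate support. Transcripts rich in G and C were higher with PcTF: of 9291 genes in deciles by GC content, the highest decile had a median centred ratio of 0.78 and the next 0.40, while the lowest 7 deciles lay between -0.18 and -0.05. For the main groups below, a second median is given with the ratio centred within 20 bins of transcript GC, and the part of GC content in any one result was not tested. Medians nearer to 0 than 0.28 carry no direction, since other centrings shift all ratios by up to that much. Genes listed at 0 in 1 library count in medians and calls, but no fold is given for them.

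**Figure D1:**
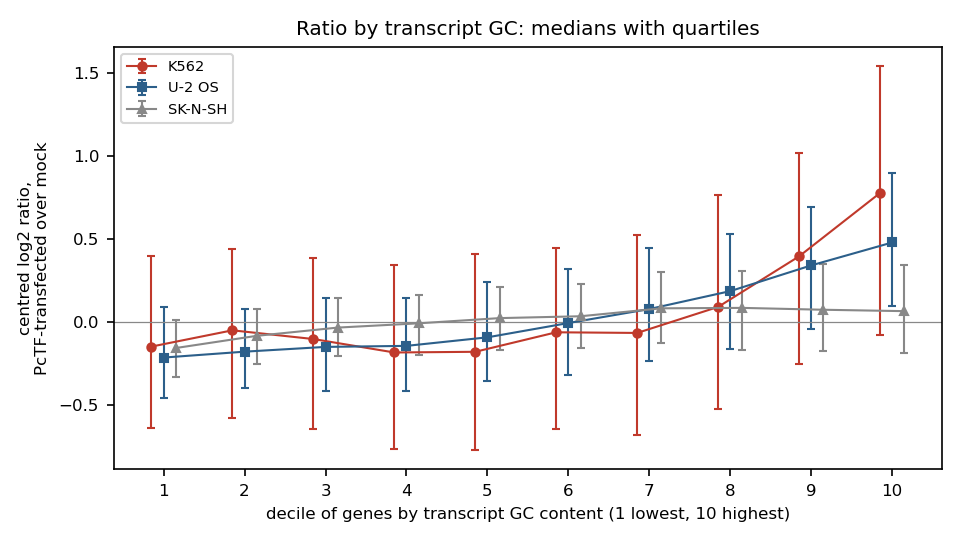
Median centred log2 ratio (points) with lower and upper quartiles (bars) in deciles of genes ranked by transcript GC content, for K562, U-2 OS and SK-N-SH, 1 PcTF-transfected over 1 mock library each. In K562 the median is -0.15 in the first decile and 0.78 in the last, against -0.21 and 0.48 in U-2 OS and -0.16 and 0.07 in SK-N-SH.

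**Figure D2:**
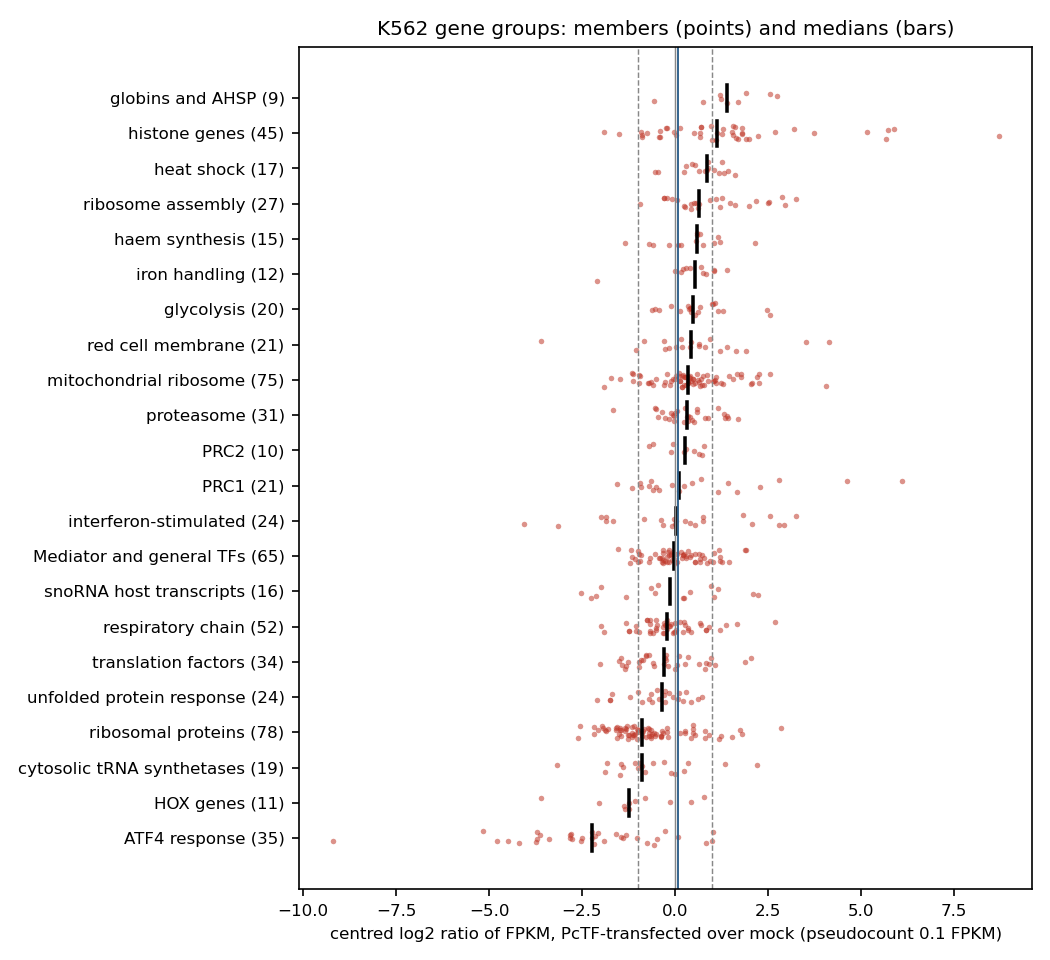
Centred log2 ratio of PcTF-transfected over mock FPKM in K562 for kept members (points) and medians (black bars) of gene groups, with the number kept in parentheses; dashed lines mark 2-fold and the blue line the median of all kept genes. The ATF4 response lies lowest at -2.23 and the globins highest at 1.40.

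The cells were checked against their markers. All 10 K562 markers, among them fetal and embryonic globins, GATA1, TAL1, KLF1, LMO2 and NFE2, reached 1 FPKM in both libraries, and their summed level was 21614 FPKM with PcTF and 7437 FPKM in mock cells. In PcTF and mock cells, markers of fibroblast-like cells summed to 1.63 and 1.13 FPKM, markers of neuroblastoma to 4.06 and 2.25 FPKM, and those of other blood lineages, of which PTPRC (CD45) alone had 34.8 FPKM in PcTF and 45.4 FPKM in mock cells, to 36.6 and 48.6 FPKM. In a longer list of matrix and mesenchymal genes 10 of 23 were kept, with summed levels of 43.6 and 81.7 FPKM, 6 higher and 3 lower. In one of other blood lineages 8 of 23 were kept, summing to 109 and 143 FPKM, 2 higher and 3 lower.

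CBX8 (hg19 chr17:77768176-77770915) stood in for the transgene, since PcTF carries its chromodomain sequence. It had 14.3 FPKM in PcTF and 1.59 FPKM in mock cells, a centred ratio of 2.80 (95% counting interval 2.33 to 3.54). U-2 OS and SK-N-SH had centred ratios of 3.14 and 4.45 for the same gene, so the library labelled PcTF was the higher one in each line. Reads from endogenous CBX8 and from the plasmid cannot be told apart. Of the control genes, CHMP2A, a subunit of the membrane-remodelling ESCRT-III complex, had 107 FPKM in PcTF and 114 FPKM in mock cells (-0.37). Beta-actin (ACTB) had 1677 FPKM in PcTF and 892 FPKM in mock cells (0.63). The glycolytic enzyme GAPDH was itself past 2-fold, at 2894 FPKM in PcTF and 428 FPKM in mock cells (2.47); its U-2 OS ratio was -0.24 and its SK-N-SH ratio 0.45. The control genes thus did not share one ratio in K562. Whether the deposited K562 table is the final version of these estimates could not be settled from the files, and every K562 value rests on that table.

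The paper chose its panel of 14 genes for evidence of polycomb silencing in human cancers and stem cells. In K562 the panel was mostly near or under the floor. Some members were expressed in mock cells, among them WT1 at 38.1 FPKM and HK2 at 2.60 FPKM, so not all were silent there. Whether polycomb silenced any member in these K562 cells was not tested here, and a listed 0 does not show it. Only 6 members reached 1 FPKM in either library, with a median centred ratio of -0.31 beside 0.08 over all kept genes, and 2 were called higher and 2 lower. CLU, the secreted chaperone clusterin, had 4.53 FPKM in PcTF and 0.322 FPKM in mock cells (3.17). HK2, which catalyses the first step of glycolysis, had 8.01 FPKM in PcTF and 2.60 FPKM in mock cells (1.30). Both were higher with PcTF. RUNX3, a Runt-family transcription factor, went the other way with 0.199 FPKM in PcTF and 2.00 FPKM in mock cells (-3.09). WT1, the Wilms tumour zinc finger factor, had 22.7 FPKM in PcTF and 38.1 FPKM in mock cells (-1.03), just past the threshold. ATF3 (-0.48) and HOXB4 (-0.14) were within 2-fold. The rest lay under 1 FPKM in both libraries: CADM1, CDKN2A and HOXA6 were listed at 0 in both, CDH1 at 0 with PcTF and CASZ1 at 0 in mock cells, IRF8 had 0.384 FPKM in PcTF and 0.0869 FPKM in mock cells, LAMB3 had 0.739 FPKM in PcTF and 0.446 FPKM in mock cells, and TRIM22, the highest of them, had 0.0467 FPKM in PcTF and 0.817 FPKM in mock cells. CASZ1, a zinc finger factor, was listed at 0.366 FPKM with PcTF.

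Kept HOX genes, which set segment identity and are classic polycomb targets, were mostly lower. Of 39 HOX genes listed, 11 were kept, 7 were called lower and 0 higher, with a median of -1.23 (-1.32 with GC-bin centring). HOXB5 had 2.59 FPKM in PcTF and 8.98 FPKM in mock cells (-2.04), and HOXB3 had 8.57 FPKM in PcTF and 17.9 FPKM in mock cells (-1.34). HOXB9, the most abundant with PcTF, was not past 2-fold at 119.6 FPKM in PcTF and 72.8 FPKM in mock cells (0.43). Lower HOX levels were a feature of the kept members: over all 25 HOX genes above 0 in either library the median was 0.53. Other developmental transcription factors were split, with 4 of 19 kept members higher and 6 lower (median -0.14). PITX1, a hindlimb homeobox factor, stood out with 28.2 FPKM in PcTF and 2.06 FPKM in mock cells (3.43). PAX9 had 0.511 FPKM in PcTF and 3.09 FPKM in mock cells (-2.67), and PAX6, the eye-field factor, 0.767 FPKM in PcTF and 2.56 FPKM in mock cells (-1.90).

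Among the polycomb proteins themselves, PRC2 was even and PRC1 was spread out. None of the 10 PRC2 genes was past 2-fold (median 0.27); the methyltransferase EZH2 had 56.5 FPKM in PcTF and 75.5 FPKM in mock cells (-0.70) and the subunit SUZ12 28.7 FPKM in PcTF and 15 FPKM in mock cells (0.64). For PRC1, 7 of 21 kept members were higher, CBX8 among them, and 2 lower (median 0.11), beside 21.8% and 16.5% of all kept genes. CBX2, another H3K27me3 reader, had 6.16 FPKM in PcTF and 2.21 FPKM in mock cells (1.16). CBX6 had 2.90 FPKM with PcTF and was listed at 0 in mock cells. BMI1, the ring finger partner of RNF2, had 8.42 FPKM with PcTF and was listed at 0.000217 FPKM in mock cells; it shares its locus with a COMMD3-BMI1 readthrough gene, so the split of reads between them is uncertain. The catalytic RNF2 itself hardly differed, at 13.9 FPKM in PcTF and 12 FPKM in mock cells (-0.07). Lower members were PCGF3, with 14.6 FPKM in PcTF and 35.3 FPKM in mock cells (-1.55), and PHC3, with 7.57 FPKM in PcTF and 13.9 FPKM in mock cells (-1.15).

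Among genes that oppose polycomb, the remodellers were spread out and the enzymes less so. Quartiles were -0.26 and 1.15 for SWI/SNF genes, and -0.63 and 0.49 for H3K27 demethylase and trithorax genes. In the SWI/SNF remodelling complex, 6 of 21 genes were higher and 1 was lower (median 0.11), beside 21.8% and 16.5% of all kept genes. The core subunit SMARCB1 had 12.5 FPKM in PcTF and 2.56 FPKM in mock cells (1.95), and SMARCD2 had 15.7 FPKM in PcTF and 2.75 FPKM in mock cells (2.19), while the ATPase SMARCA4 had 65.1 FPKM in PcTF and 63.8 FPKM in mock cells (-0.26). BCL7C was listed at 0 in mock cells and had 5.15 FPKM with PcTF. Of 13 H3K27 demethylase and trithorax genes, 0 were higher and 2 lower; the demethylase KDM6B had 3.09 FPKM in PcTF and 5.78 FPKM in mock cells (-1.17).

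The ATF4 response had the lowest median of the 46 gene groups followed. Among 35 kept genes of the ATF4 and integrated stress response list, 27 were at least 2-fold lower in PcTF-transfected than in mock cells and 2 were higher. The median centred ratio was -2.23, with quartiles of -3.52 and -1.16, and -2.37 with GC-bin centring, by which 27 were lower and 0 higher. Over all kept genes 16.5% were called lower. In a bulk library, fewer cells that express a gene and less RNA per cell cannot be told apart, and this holds for every group below.

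**Figure D3:**
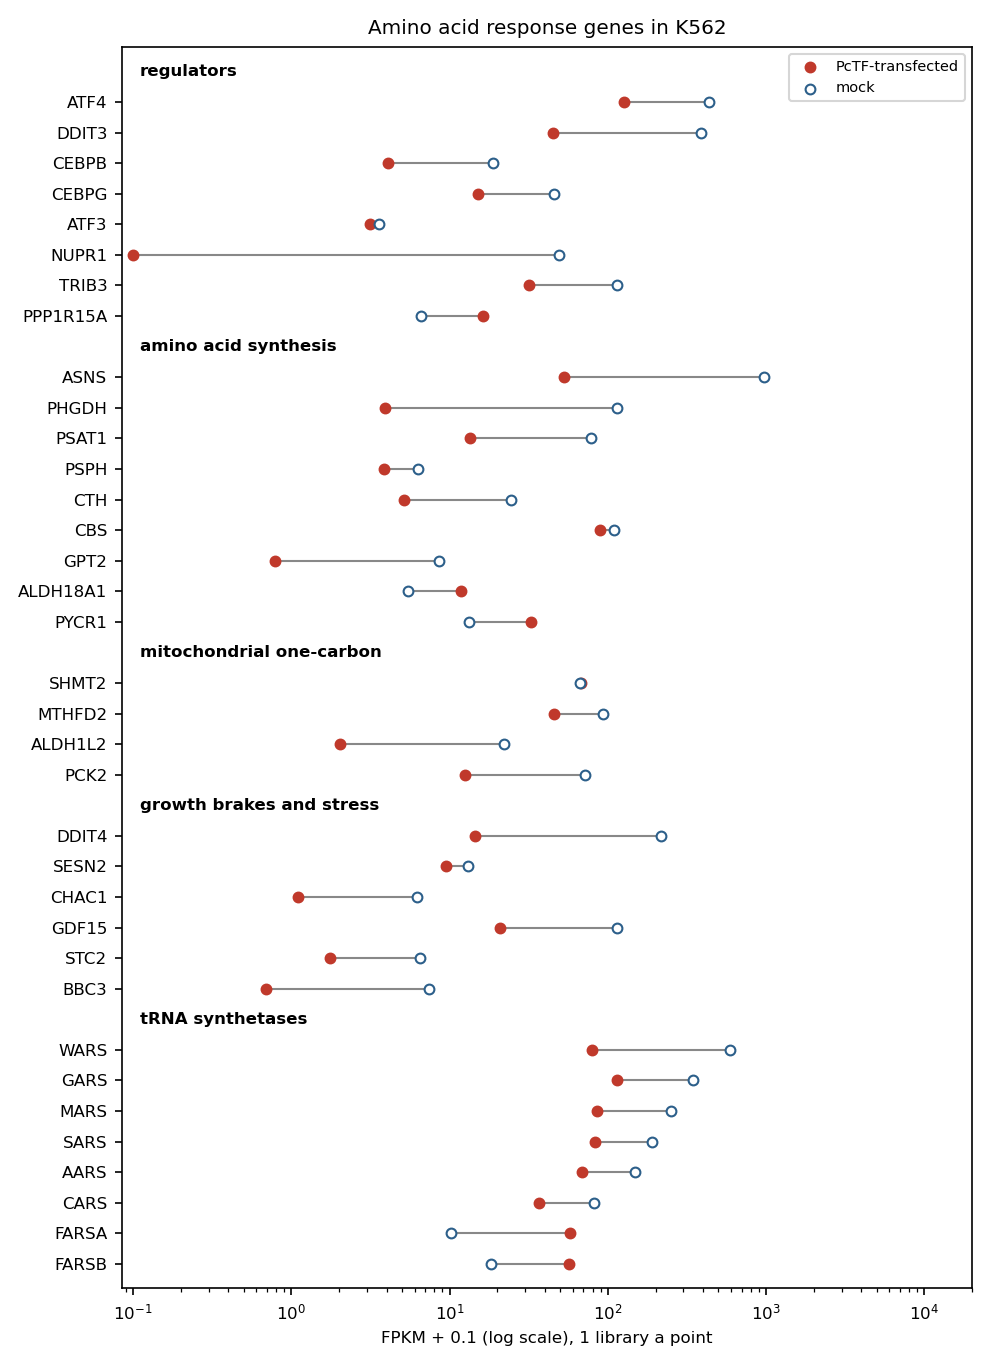
FPKM plus 0.1 on a log axis for amino acid response genes and tRNA synthetases in K562, grouped by role; filled points are the PcTF-transfected library and open points the mock library. Nearly every filled point lies to the left of its open point; PPP1R15A, ALDH18A1, PYCR1, FARSA and FARSB lie to the right, SHMT2 overlaps, and NUPR1, listed at 0 with PcTF, is drawn at 0.1.

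Most regulators of the cascade were lower. ATF4, the master factor, had 126 FPKM in PcTF and 437 FPKM in mock cells (-2.08). DDIT3, which encodes the pro-apoptotic factor CHOP, had 44.7 FPKM in PcTF and 385 FPKM in mock cells (-3.39). TRIB3, a pseudokinase that ATF4 and CHOP induce, had 31.7 FPKM in PcTF and 115 FPKM in mock cells (-2.14). All of them were abundant in mock cells. CEBPB had 3.97 FPKM in PcTF and 18.7 FPKM in mock cells (-2.50), and its partner CEBPG 14.9 FPKM in PcTF and 45.8 FPKM in mock cells (-1.90). ATF5, a related bZIP factor outside the list, was among the lowest genes of the whole comparison, at 8.85 FPKM in PcTF and 222 FPKM in mock cells (-4.92). NUPR1, a small stress-induced chromatin protein, had 48.6 FPKM in mock cells and was listed at 0 with PcTF. Not every regulator was lower: ATF3 had 3.02 FPKM in PcTF and 3.48 FPKM in mock cells (-0.48), and PPP1R15A, the phosphatase subunit GADD34 that reverses eIF2α phosphorylation, was higher at 16.2 FPKM in PcTF and 6.47 FPKM in mock cells (1.03).

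Enzymes of amino acid synthesis had ratios of widely different size. ASNS, asparagine synthetase, had 52.5 FPKM in PcTF and 975 FPKM in mock cells, a centred ratio of -4.50 (95% counting interval -4.60 to -4.40). PHGDH, which opens the serine pathway, had 3.80 FPKM in PcTF and 114 FPKM in mock cells (-5.16). PSAT1, the next enzyme, had 13.4 FPKM in PcTF and 78 FPKM in mock cells (-2.82), and PSPH, the last, 3.73 FPKM in PcTF and 6.25 FPKM in mock cells (-1.01). Along the serine pathway the gap was widest at the first step and narrowest at the last. In transsulfuration CTH had 5.08 FPKM in PcTF and 24.4 FPKM in mock cells (-2.52), while CBS, one step earlier, had 89.2 FPKM in PcTF and 109 FPKM in mock cells (-0.57). The mitochondrial one-carbon enzymes were uneven: ALDH1L2 had 1.93 FPKM in PcTF and 21.9 FPKM in mock cells (-3.72), MTHFD2 45.7 FPKM in PcTF and 93.1 FPKM in mock cells (-1.31) and SHMT2 67.5 FPKM in PcTF and 66.7 FPKM in mock cells (-0.27). Outside the one-carbon route, PCK2, mitochondrial PEP carboxykinase, had 12.3 FPKM in PcTF and 71.7 FPKM in mock cells (-2.81). The proline pathway ran against the group, with ALDH18A1 at 11.7 FPKM in PcTF and 5.32 FPKM in mock cells (0.84) and PYCR1 at 32.3 FPKM in PcTF and 13.1 FPKM in mock cells (1.01).

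Stress effectors followed the enzymes. DDIT4, which restrains mTORC1, had 14.3 FPKM in PcTF and 218 FPKM in mock cells (-4.20). GDF15, a secreted stress cytokine, had 20.6 FPKM in PcTF and 115 FPKM in mock cells (-2.76). CHAC1, which degrades glutathione, had 0.994 FPKM in PcTF and 6.12 FPKM in mock cells (-2.79). All of these were lower. BBC3, the BH3-only protein PUMA, had 0.589 FPKM in PcTF and 7.27 FPKM in mock cells (-3.70). SLC7A11, the cystine importer, had 2.37 FPKM in PcTF and 9.47 FPKM in mock cells (-2.24). CCPG1, an endoplasmic reticulum autophagy receptor, had 9.17 FPKM in PcTF and 95 FPKM in mock cells (-3.64). SESN2, which senses leucine, was within 2-fold, at 9.33 FPKM in PcTF and 12.9 FPKM in mock cells (-0.75). The same list in the other lines had medians of 0.74 in U-2 OS, with 15 of 34 members higher and 0 lower (of all kept U-2 OS genes, 10.9% were higher and 6.08% lower), and 0.23 in SK-N-SH, with 5 of 31 higher and 0 lower (5.1% and 3.04% of all kept genes). Thus this list was not lower in either of them. In U-2 OS, ASNS had 77.6 FPKM with PcTF and 44.3 FPKM in mock cells; in SK-N-SH it had 33.9 and 28.1 FPKM. The mock level in K562, 975 FPKM, was the highest of these 6 libraries, although each line's table was normalised separately.

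ATF4 binds C/EBP-ATF elements, and promoters of the group were read for the letters of the core element, TGATGNAA, on both strands. RefSeq promoter windows (250 bases before to 50 after a start site, GRCh38.p14) were found for 30 of the 38 listed genes, and 8 of them (26.7%) held a match (JDP2 and FGF21, with matches, were not kept), against 4.46% of 27305 genes in the table. For the stricter TGATGCAA, which is contained in the first pattern, the shares were 20% and 1.08%. Among cytosolic tRNA synthetases, 6 of 16 genes with a window held TGATGCAA (37.5%). A match is a description of the letters and not a binding site. The ATF4 list was made of ATF4 and integrated stress response targets, so a raised share of these letters was built into it. The shares rest on sequence alone and say nothing about these libraries. The windows below, 150 bases each, are shown as examples of genes with a match, with the match in capitals, written 5′ to 3′ on the strand of the gene, so that a match on the other strand reads TTGCATCA. Positions of the match are counted from the start site. ASNS, CHAC1, CEBPG, AARS and MARS were called lower, while IARS, TARS and NARS were within 2-fold. GARS (-1.87) and CARS (-1.44) also held a match and were called lower, while ATF3 (-0.48) held a match and was within 2-fold. The windows of GARS, CARS and ATF3 are not shown.
ASNS (chr7:97872409-97872558, minus strand, match from -68): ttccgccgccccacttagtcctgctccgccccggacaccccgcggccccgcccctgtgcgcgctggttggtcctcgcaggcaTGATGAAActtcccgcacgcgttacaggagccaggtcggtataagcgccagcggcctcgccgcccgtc
CHAC1 (chr15:40953221-40953370, plus strand, match from -209): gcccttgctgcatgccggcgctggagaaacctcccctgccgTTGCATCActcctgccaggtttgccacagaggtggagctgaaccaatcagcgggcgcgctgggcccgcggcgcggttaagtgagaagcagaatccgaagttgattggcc
CEBPG (chr19:33373963-33374112, plus strand, match from -42): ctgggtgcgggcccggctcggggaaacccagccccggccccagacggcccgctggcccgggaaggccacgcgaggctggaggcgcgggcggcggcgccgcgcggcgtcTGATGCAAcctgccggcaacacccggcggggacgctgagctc
AARS1 (chr16:70289586-70289735, minus strand, match from -187): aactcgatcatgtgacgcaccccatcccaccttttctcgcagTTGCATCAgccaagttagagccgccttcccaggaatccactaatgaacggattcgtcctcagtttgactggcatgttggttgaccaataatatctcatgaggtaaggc
IARS1 (chr9:92293698-92293847, minus strand, match from -13): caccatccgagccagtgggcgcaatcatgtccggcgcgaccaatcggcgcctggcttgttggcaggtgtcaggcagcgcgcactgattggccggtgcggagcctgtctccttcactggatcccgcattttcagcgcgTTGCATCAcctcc
MARS1 (chr12:57487922-57488071, plus strand, match from -4): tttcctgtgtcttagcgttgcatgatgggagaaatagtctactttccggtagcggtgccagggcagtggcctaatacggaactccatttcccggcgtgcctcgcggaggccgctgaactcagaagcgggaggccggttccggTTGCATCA
TARS1 (chr5:33440825-33440974, plus strand, match from 3): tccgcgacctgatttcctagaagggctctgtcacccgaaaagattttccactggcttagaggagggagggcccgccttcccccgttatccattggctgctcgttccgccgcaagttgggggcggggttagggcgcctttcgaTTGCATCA
NARS1 (chr18:57621815-57621964, minus strand, match from 15): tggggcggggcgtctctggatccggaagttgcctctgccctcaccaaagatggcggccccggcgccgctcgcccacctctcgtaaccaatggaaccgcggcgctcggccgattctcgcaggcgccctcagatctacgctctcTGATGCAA
The genes with these windows, named as in the deposited table, had centred ratios of -4.50 for ASNS, -2.79 for CHAC1, -1.90 for CEBPG, -1.39 for AARS, -1.83 for MARS, -0.81 for IARS, -0.88 for TARS and -0.29 for NARS. NARS, whose window holds the stricter letters, had 80.4 FPKM in PcTF and 80.5 FPKM in mock cells, a difference within 2-fold.

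The tRNA synthetases, which charge tRNAs with amino acids, leaned lower. Of 19 kept cytosolic synthetases, 8 were called lower and 2 higher, with a median of -0.88 (-0.72 with GC-bin centring). AARS and CARS, both called lower, are members of the ATF4 list as well, so the groups overlap. WARS, for tryptophan, had 79.3 FPKM in PcTF and 590.4 FPKM in mock cells (-3.18). GARS, for glycine, had 114 FPKM in PcTF and 343 FPKM in mock cells (-1.87), and MARS, for methionine, 85.4 FPKM in PcTF and 249 FPKM in mock cells (-1.83). The phenylalanine enzyme was the exception: its subunits FARSA and FARSB had 57.6 FPKM in PcTF and 10.1 FPKM in mock cells (2.21) and 56.8 FPKM in PcTF and 18.1 FPKM in mock cells (1.36). Amino acid transporters did not share the direction, with 6 of 17 higher and 3 lower (median 0.34). SLC38A5, a glutamine carrier, had 19 FPKM in PcTF and 3.11 FPKM in mock cells (2.29), and SLC6A9, a glycine carrier, 2.96 FPKM in PcTF and 9.39 FPKM in mock cells (-1.91). SLC1A5, the most abundant with SLC43A3, had 181 FPKM in PcTF and 206 FPKM in mock cells (-0.47).

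The unfolded protein response is a neighbouring pathway. None of its 24 kept genes was higher and 5 were lower (median -0.35, -0.41 with GC-bin centring), a share not far from the 16.5% called lower over all kept genes. Without centring the median was -0.0640. The ubiquitin ligase SYVN1 had 12.3 FPKM in PcTF and 43.2 FPKM in mock cells (-2.09), and ERN1, the sensor IRE1α, 7.56 FPKM in PcTF and 20.8 FPKM in mock cells (-1.74). The chaperone HSPA5 (BiP) was within 2-fold, at 147 FPKM in PcTF and 190.1 FPKM in mock cells (-0.65). VEGFA, an angiogenic factor counted with the hypoxia genes, had 18.8 FPKM in PcTF and 92.5 FPKM in mock cells (-2.58).

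Among erythroid groups, most globin genes were called higher with PcTF, whereas the shares called higher among lineage transcription factors, haem synthesis and iron genes were near the 21.8% of all kept genes. Of 9 kept genes for globin chains and their chaperone, 7 were called higher and 0 lower, with a median of 1.40; with GC-bin centring the median was 0.86 and 4 were past 2-fold. The embryonic zeta chain HBZ had 73.5 FPKM in PcTF and 8.87 FPKM in mock cells (2.75). Fetal gamma chains were the most abundant: HBG2 had 8297 FPKM in PcTF and 2912 FPKM in mock cells (1.23) and HBG1 7199 FPKM in PcTF and 1567 FPKM in mock cells (1.92), a pair so similar that reads may be split between them. The embryonic epsilon chain HBE1 had 5574 FPKM in PcTF and 2694 FPKM in mock cells (0.76), and the adult delta chain HBD 33.1 FPKM in PcTF and 4.50 FPKM in mock cells (2.57). HBA1 and HBA2, a near-identical pair, were low at 26.1 and 24.5 FPKM with PcTF, against 8.04 and 8.52 FPKM in mock cells. The adult beta chain HBB stayed under 1 FPKM in both libraries, and the alpha-chain chaperone AHSP was within 2-fold, at 11.2 FPKM in PcTF and 13.4 FPKM in mock cells (-0.55). Embryonic, fetal and delta chains thus had positive ratios, HBE1 short of 2-fold, and HBB stayed under the floor.

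**Figure D4:**
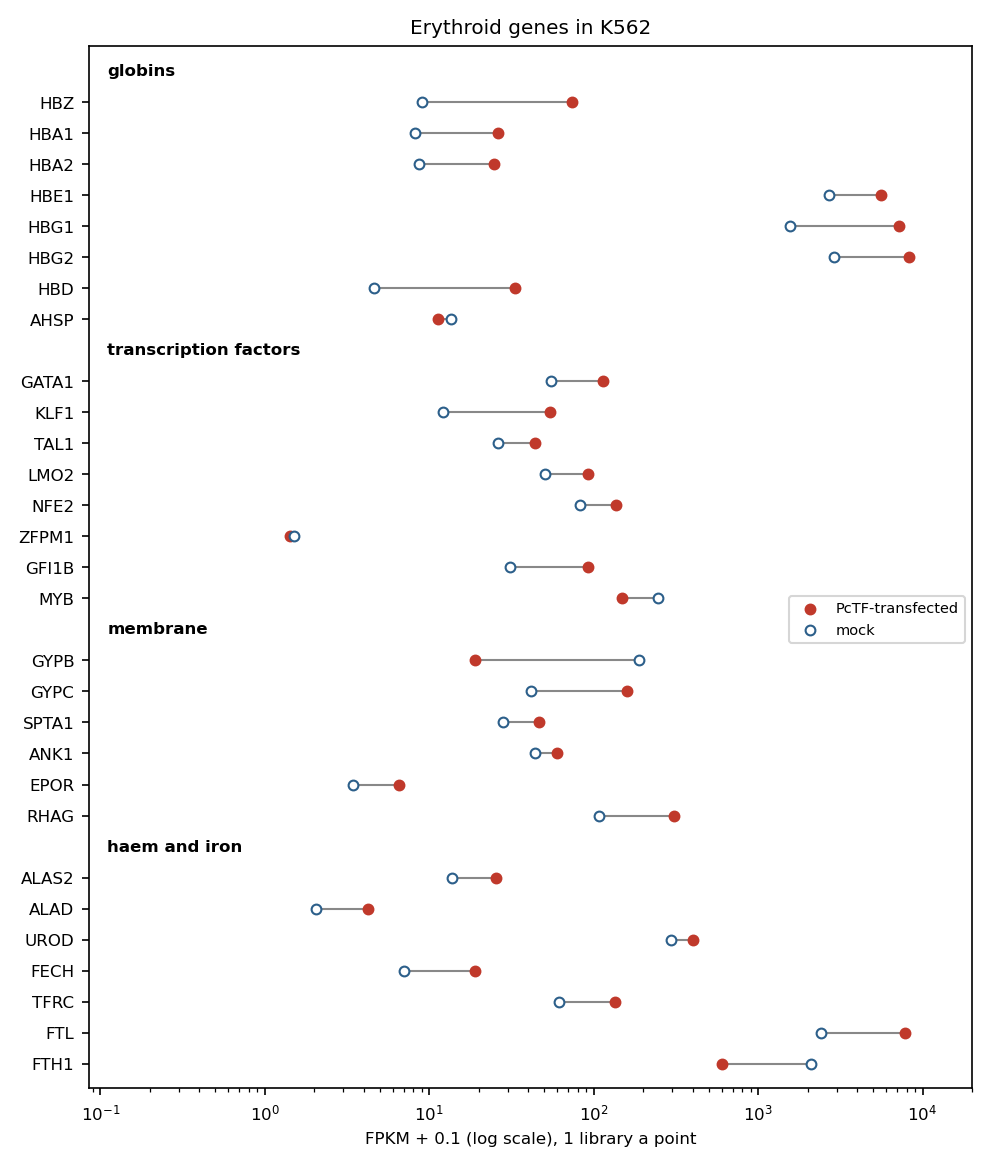
FPKM plus 0.1 on a log axis for erythroid genes in K562, grouped by role; filled points are the PcTF-transfected library and open points the mock library. The globins and haem enzymes lie to the right with PcTF, while GYPB, FTH1, MYB and AHSP lie to the left.

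Transcription factors of the lineage differed in both directions. KLF1, the activator of globin and red cell genes, had 54.2 FPKM in PcTF and 12 FPKM in mock cells (1.89), although its transcript is rich in GC and the ratio was 0.95 with GC-bin centring. The repressor GFI1B had 92.2 FPKM in PcTF and 30.9 FPKM in mock cells (1.29, 0.85 with GC-bin centring). GATA1, TAL1, LMO2 and NFE2 were within 2-fold, with centred ratios of 0.77, 0.44, 0.57 and 0.44. MYB, which keeps progenitors dividing, had 149 FPKM in PcTF and 248 FPKM in mock cells (-1.01), and the cofactor LDB1 50.5 FPKM in PcTF and 95 FPKM in mock cells (-1.19). Over the list 3 of 13 were higher and 3 lower (median 0.44), and with GC-bin centring 1 was higher and 3 lower. The median was 0.21 with centring on the reference genes.

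Red cell membrane genes gave 6 higher and 2 lower of 21 (median 0.44), beside 21.8% and 16.5% of all kept genes. The ammonium channel RHAG had 308 FPKM in PcTF and 108 FPKM in mock cells (1.23) and glycophorin C (GYPC) 159.8 FPKM in PcTF and 41.7 FPKM in mock cells (1.65). Glycophorin B (GYPB) was lower, with 18.8 FPKM in PcTF and 189 FPKM in mock cells (-3.61); it has close gene copies, so its share of their reads is uncertain. ABO, the blood group glycosyltransferase, had the lowest centred ratio under the naming rule, which asks for at least 1 FPKM in both libraries, with 5.98 FPKM in PcTF and 232 FPKM in mock cells (-5.54).

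Haem synthesis and iron genes had shares called higher near the 21.8% of all kept genes. In haem synthesis 4 of 15 genes were higher and 1 was lower (median 0.60, 0.62 with GC-bin centring). FECH, which inserts iron, had 19 FPKM in PcTF and 6.96 FPKM in mock cells (1.15). ALAS2, the erythroid first enzyme, was within 2-fold at 25.5 FPKM in PcTF and 13.7 FPKM in mock cells (0.60). The ferritin chains parted: light chain FTL had 7817 FPKM in PcTF and 2412 FPKM in mock cells (1.41) and heavy chain FTH1 600.3 FPKM in PcTF and 2105 FPKM in mock cells (-2.09). The transferrin receptor TFRC had 134 FPKM in PcTF and 61.3 FPKM in mock cells (0.85), and over the iron list 3 of 12 were higher and 1 was lower (median 0.55). TSPO, a mitochondrial porphyrin-binding protein, was among the highest genes of the comparison at 78.9 FPKM in PcTF and 5.68 FPKM in mock cells (3.49). Megakaryocyte genes, the sister lineage, were split 4 higher to 3 lower of 11; the platelet integrin ITGA2B had 1.03 FPKM in PcTF and 2.66 FPKM in mock cells (-1.57) and the platelet glycoprotein GP1BB 91.3 FPKM in PcTF and 21 FPKM in mock cells (1.83).

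Genes of progenitor and leukaemia biology were close to even, with 1 of 15 higher and 1 lower (median -0.05). BCR, the partner of ABL1 in the fusion, had 17.4 FPKM in PcTF and 6.80 FPKM in mock cells (1.06) and ABL1 60 FPKM in PcTF and 35.9 FPKM in mock cells (0.45). MYC had 146 FPKM in PcTF and 209 FPKM in mock cells (-0.80), and the STAT5 targets PIM1, CISH and SOCS2 had centred ratios of -0.11, 0.11 and 0.21. The exception was BCL2L1, whose main product BCL-xL protects erythroid cells from apoptosis, with 14.8 FPKM in PcTF and 106 FPKM in mock cells (-3.11). Other BCL2 family genes were split as well: MCL1 had 33.5 FPKM in PcTF and 65 FPKM in mock cells (-1.24), and BAD 12.9 FPKM in PcTF and 1.39 FPKM in mock cells (2.83). BAX was listed at 0 in mock cells and had 1.35 FPKM with PcTF. In all, 3 of 11 were higher and 3 lower.

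Cytosolic ribosomal protein genes leaned lower. Of 78 kept, 35 were at least 2-fold lower and 6 higher, with a median of -0.88 (-0.83 with GC-bin centring). They held 15.9% of all FPKM in PcTF-transfected cells and 28.5% in mock cells. RPS25 had 2496 FPKM in PcTF and 12433 FPKM in mock cells (-2.60), and RPL11 had 5053 FPKM in PcTF and 12372 FPKM in mock cells (-1.58). RPL23 had 3062 FPKM in PcTF and 11463 FPKM in mock cells (-2.19). These are among the most abundant transcripts of the line. The group was not uniform, since RPL29 had 334 FPKM in PcTF and 37.8 FPKM in mock cells (2.85) and RPS14 2616 FPKM in PcTF and 611 FPKM in mock cells (1.81), both higher. Reads from processed pseudogenes of these genes may have been shared in the counting. In U-2 OS the median of the list was 0.73 and in SK-N-SH 0.01. Over all genes present in both U-2 OS libraries, the ratio fell with transcript length. Its median was 0.36 in the shortest quintile and -0.21 in the longest, against 0.03 and -0.05 in K562. The part of transcript length in the U-2 OS value of the list was not tested.

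Host transcripts of small nucleolar RNAs (snoRNAs), several of which share the 5′ terminal oligopyrimidine start of ribosomal protein mRNAs, were split, with 4 higher and 5 lower of 16. GAS5, a noncoding host, had 89.8 FPKM in PcTF and 428 FPKM in mock cells (-2.54), and SNHG5 139 FPKM in PcTF and 543 FPKM in mock cells (-2.25). Among mRNAs with the same kind of start, TPT1 had 1523 FPKM in PcTF and 3552 FPKM in mock cells (-1.51) and GNB2L1, the ribosomal scaffold RACK1, 1251 FPKM in PcTF and 2456 FPKM in mock cells (-1.26). DANCR was among the higher hosts, at 847 FPKM in PcTF and 310.3 FPKM in mock cells (1.16). Translation factors gave 3 higher and 7 lower of 34 (median -0.28). EIF1, which guides start-codon choice, had 197 FPKM in PcTF and 652 FPKM in mock cells (-2.01), and EIF2S1, the eIF2α subunit itself, 31.9 FPKM in PcTF and 6.95 FPKM in mock cells (1.90). For mature snoRNA genes 79 of 111 kept were higher and 11 lower. Their FPKM are large where a read covers a very short gene, and the median of 7.56 dropped to 0.63 over the 40 genes present in both libraries.

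In contrast to the ribosomal proteins, genes that assemble the ribosome leaned higher. Of 27 such genes 12 were called higher and 0 lower, with a median of 0.65 (0.74 with GC-bin centring). POLR1A, the large subunit of RNA polymerase I, had 22.7 FPKM in PcTF and 4.61 FPKM in mock cells (1.99). NOP2, an rRNA methyltransferase, had 33.3 FPKM in PcTF and 6.00 FPKM in mock cells (2.17), and the snoRNP protein NHP2 192 FPKM in PcTF and 51 FPKM in mock cells (1.63). The abundant nucleolin (NCL) was within 2-fold at 874 FPKM in PcTF and 883 FPKM in mock cells (-0.30). Of 75 mitochondrial ribosomal protein genes 19 were higher, a share near the 21.8% over all kept genes, and 6 lower (median 0.36, 0.13 with centring on the reference genes); MRPL28 had 192 FPKM in PcTF and 9.35 FPKM in mock cells (4.06) and MRPL12 125 FPKM in PcTF and 22.1 FPKM in mock cells (2.21). Nuclear genes of the respiratory chain were nearly even, 4 higher and 7 lower of 52 (median -0.22), with COX4I1 at 382 FPKM in PcTF and 1246 FPKM in mock cells (-1.99) and ATP5D at 530.3 FPKM in PcTF and 67.3 FPKM in mock cells (2.69). In the tricarboxylic acid cycle 4 of 21 were higher and 2 lower, and OGDH was one of the higher ones at 17.1 FPKM in PcTF and 3.45 FPKM in mock cells (1.99).

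Kept genes of the cytosolic heat shock response leaned higher. None of 17 kept members was called lower and 6 were higher (median 0.87, 0.93 with GC-bin centring), beside 21.8% higher over all kept genes. Members under the floor were HSPA6, at 0.386 FPKM in PcTF and 0.349 FPKM in mock cells, and HSPA1A, HSPA1B and HSPA1L, listed at 0 in both. HSPA8, the constitutive HSC70, had 1753 FPKM in PcTF and 473 FPKM in mock cells (1.61). HSP90AB1 had 2231 FPKM in PcTF and 880.0 FPKM in mock cells (1.06), and the HSP70-HSP90 organiser STIP1 250.1 FPKM in PcTF and 76.1 FPKM in mock cells (1.43). The regulator HSF1 was within 2-fold, at 22.8 FPKM in PcTF and 25.5 FPKM in mock cells (-0.45). U-2 OS and SK-N-SH had medians of 0.18 and -0.04 for this list.

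Glycolytic genes were higher or within 2-fold, with 7 of 20 genes past 2-fold and 0 lower (median 0.49), beside 21.8% and 16.5% of all kept genes. SLC2A1, the glucose transporter GLUT1 of the red cell membrane, had 73.8 FPKM in PcTF and 10.2 FPKM in mock cells (2.56). Enolase ENO1 had 492 FPKM in PcTF and 179.8 FPKM in mock cells (1.17), and aldolase ALDOA 889.6 FPKM in PcTF and 362 FPKM in mock cells (1.01). Lactate dehydrogenase LDHB leaned the other way, at 902 FPKM in PcTF and 1140.3 FPKM in mock cells (-0.62). Hypoxia genes did not follow glycolysis, with 3 of 20 higher and 3 lower; BHLHE40 had 43.5 FPKM in PcTF and 111 FPKM in mock cells (-1.63). Targets of the oxidative stress factor NRF2 gave 1 higher and 3 lower of 20 (median -0.16), with NQO1 at 13.8 FPKM in PcTF and 27.5 FPKM in mock cells (-1.27). GSTP1, a glutathione transferase outside these lists, was among the highest genes at 938 FPKM in PcTF and 83 FPKM in mock cells (3.21).

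Cell cycle genes were mostly within 2-fold. For DNA replication 5 of 37 were higher and 0 lower (median 0.19), and for mitosis 2 and 4 of 30 (median -0.33). The helicase subunit MCM5 had 42.8 FPKM in PcTF and 9.21 FPKM in mock cells (1.92), and the proliferation marker MKI67 78.6 FPKM in PcTF and 193 FPKM in mock cells (-1.58). The kinases AURKB and PLK1 were higher, at 41.3 FPKM in PcTF and 10.8 FPKM in mock cells (1.65) and 43.7 FPKM in PcTF and 13.5 FPKM in mock cells (1.41). CDKN2C, the INK4 inhibitor p18, had 31.5 FPKM in PcTF and 4.60 FPKM in mock cells (2.47), while CDKN1A (p21) had 4.39 FPKM in PcTF and 3.93 FPKM in mock cells (-0.13). K562 lacks functional p53, and p53 target genes were split, with 3 of 19 higher and 4 lower.

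Replication-dependent histone genes leaned higher, with 24 of 45 past 2-fold and 2 lower (median 1.13, 0.79 with GC-bin centring). The linker histone HIST1H1E had 1083 FPKM in PcTF and 24.6 FPKM in mock cells (5.17), and HIST1H3B, a histone H3 gene, 1255 FPKM in PcTF and 296 FPKM in mock cells (1.80). The abundant HIST1H2BK and HIST1H1C were within 2-fold, at ratios of 0.15 and -0.39. SLBP, which binds the histone mRNA stem-loop, had 207 FPKM in PcTF and 62 FPKM in mock cells (1.45). Most histone mRNAs have no poly(A) tail, and the genes are short, GC-rich and similar in sequence, so that reads may be shared; only 6 members have a locus of at least 1000 bp, with a median of 0.0567.

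The genes with the largest gaps under the naming rule differed in sequence composition. The 20 highest genes had a median transcript GC content of 62.5% and the 20 lowest 45.7%, against 48.2% over all kept genes, and all 20 highest were still past 2-fold with GC-bin centring. TMUB1, a ubiquitin-like membrane protein, had 51.1 FPKM in PcTF and 1.89 FPKM in mock cells (4.40). FIS1, a mitochondrial fission adaptor, had 61.7 FPKM in PcTF and 2.79 FPKM in mock cells (4.13), and TYROBP, the signalling adaptor DAP12, 22.1 FPKM in PcTF and 1.23 FPKM in mock cells (3.78). SCAMP2, a carrier protein of the secretory pathway, had 148 FPKM in PcTF and 11.8 FPKM in mock cells (3.35). Among the 20 lowest, besides ABO, ATF5, PHGDH, ASNS, DDIT4, ALDH1L2, CCPG1 and GYPB, stood BEX2, a brain-expressed X-linked gene, with 7.79 FPKM in PcTF and 172 FPKM in mock cells (-4.73). Calmegin (CLGN), a testis chaperone, had 1.22 FPKM in PcTF and 23.6 FPKM in mock cells (-4.45), and the lipase inhibitor G0S2 7.99 FPKM in PcTF and 114 FPKM in mock cells (-4.11). The hydrolase gene FHIT at a common fragile site had 2.62 FPKM in PcTF and 26.8 FPKM in mock cells (-3.59).

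In 351 kept genes the mock library was listed at 0, and in 109 the PcTF library was. Of those at 0 in mock cells, DNLZ, a partner of mitochondrial HSP70, had the highest level with 36 FPKM, followed by the eosinophil granule protein PRG2 with 20 FPKM and the ghrelin gene GHRL with 8.44 FPKM. Of those at 0 with PcTF, SPRR2D, a cornified envelope protein, had 128 FPKM in mock cells, the galectin LGALS13 55.2 FPKM and SERPINC1, antithrombin, 8.11 FPKM. No fold is given for these, and a listed 0 can be a failed estimate.

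Innate immune genes, which a cell can raise on sensing foreign nucleic acid, are set beside the other lines. Of 49 interferon-stimulated genes, 24 were kept in K562, with 6 higher and 6 lower and a median of 0.02. In U-2 OS 39 of 40 kept members were higher (median 2.47; 10.9% of all kept genes were), and in SK-N-SH 33 of 40 (median 2.45; 5.1% of all). ISG15, a ubiquitin-like protein, had 14.3 FPKM in PcTF and 46.7 FPKM in mock cells (-1.98) in K562, against a U-2 OS ratio of 4.21 and a SK-N-SH ratio of 2.29. The membrane restriction factor IFITM1 had 367 FPKM in PcTF and 1085 FPKM in mock cells (-1.85), against 4.88 and 4.32. Some members were higher in K562 too: BST2, which tethers virions, had 76.7 FPKM in PcTF and 14.8 FPKM in mock cells (2.08), and IFI27 7.52 FPKM in PcTF and 0.961 FPKM in mock cells (2.56). OAS1, an enzyme switched on by double-stranded RNA, was listed at 0 in both K562 libraries. For NF-kB targets and cytokines, 11 of 26 were kept in K562, with a median of -0.64; the U-2 OS median was 1.65 and the SK-N-SH median 2.69; TNFAIP3, a feedback inhibitor, had 2.14 FPKM in PcTF and 6.57 FPKM in mock cells (-1.86) and SOD2 63.4 FPKM in PcTF and 22.5 FPKM in mock cells (1.21). The lines differ in collection time as well as in origin, their tables were made separately, and the difference between lines was not tested.

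**Figure D5:**
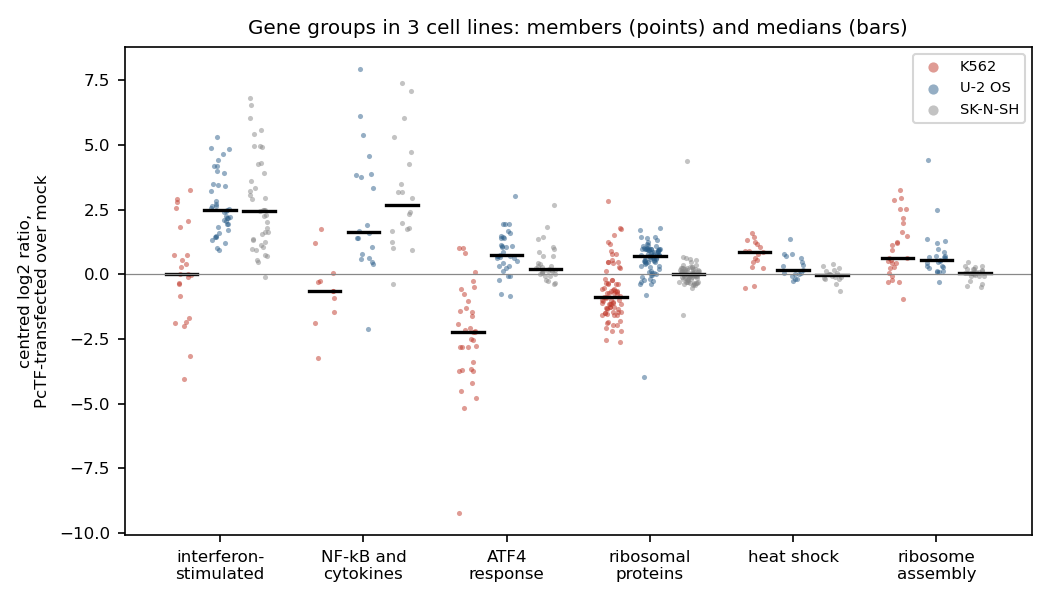
Centred log2 ratio of PcTF-transfected over mock FPKM for members (points) and medians (bars) of gene groups in K562, U-2 OS and SK-N-SH, 1 library a side in each line. The interferon-stimulated medians are 0.02, 2.47 and 2.45, and those of the ATF4 response -2.23, 0.74 and 0.23.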

How the data were processed

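RNA-seq of 2 K562 libraries (PcTF-transfected and mock-transfected), with 50 ng of total RNA amplified by single primer isothermal amplification, was read from the FPKM table that the authors deposited. Per the submitters' processing notes the tools were FastQC, TopHat2 2.1.0, Bowtie2, Cufflinks and Cuffdiff on hg19 (GRCh37), with HTSeq, DESeq and DESeq2 for counts not used here. The deposited FPKM values are Cuffdiff estimates scaled to depth and gene length; amplification and GC content can bias them, and genes that share a locus may share reads. The table's own fold change, test statistic, p-value and q-value columns were not used. Strand use in the counting is not given in the sources used here.

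The log2 ratio, its centring, the floor and the 2-fold call were computed with Python 3.11.15, pandas 2.3.3, NumPy 2.4.6 and SciPy 1.17.1, and tested on simulated reads. Depth came from low values of single-exon genes, of which 98.6% (69 values, PcTF) and 93.8% (48 values, mock) were whole reads within 3%, with a fragment of 200 bp assumed. GC content and length came from GENCODE transcripts on GRCh37, matched by current or older symbol for 95.7% of kept genes. Of 56 gene lists, 46 were followed. Named genes were CBX8, the panel and the control genes, the 20 highest and 20 lowest ratios (at least 10 FPKM in the higher and 1 FPKM in the lower library, locus of at least 1000 bp, no small RNA or unnamed genes), the 10 most abundant at 0 on either side, and in each list the 4 farthest from 0 and the 2 most abundant; other named genes were chosen after their values were seen. The members and lists were chosen with earlier results of these data known. Alternatives were other pseudocounts, centrings, floors, a locus length minimum and a 4-fold threshold. K562 genes with too many reads for the authors' estimate (2) were left out, and the fit of ZNF33A is marked as failed in the table and kept. The other libraries of the series were not used here, and some single genes are not reported here.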

Additional observations from a re-analysis of the deposited data

Results flagged for a closer look

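Some gene groups had medians of at least 1.5-fold in opposite directions in K562 and another line, and these differences were not tested, since each line has 1 library a side. The ATF4 response had a median centred ratio of -2.23 in K562 and 0.74 in U-2 OS. Ribosomal protein genes had -0.88 in K562 and 0.73 in U-2 OS, where shorter transcripts had higher ratios over all genes. NF-kB targets and cytokines had -0.64 in K562, against 1.65 for U-2 OS and 2.69 for SK-N-SH. Metallothionein and zinc response genes had -1.16 in K562 and 0.67 in U-2 OS, where the K562 value rests on 6 genes that go both ways: MT1X had 5.39 FPKM in PcTF and 21.3 FPKM in mock cells (-2.25), MT2A 6.90 FPKM in PcTF and 19.9 FPKM in mock cells (-1.80) and the zinc exporter SLC30A1 32 FPKM in PcTF and 7.30 FPKM in mock cells (1.83). MT1A was listed at 0 in mock K562 cells and had 5.62 FPKM with PcTF.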

How the results depend on the processing

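Each value rests on 1 library a side, so counting error is the only error that could be measured. Medians of 46 gene groups were recomputed under 11 settings, which gave 505 values; 495 moved by less than 0.585 on the log2 scale (1.5-fold), and of the medians past that size 1 changed sign. That one was the HOX median, at 0.53 when every gene above 0 was kept. For the 50 single genes with the largest gaps or on the polycomb panel, 299 values were recomputed. None of a gene past 2-fold changed sign, and HOXB4, within 2-fold, did so without centring; 47 values, in 27 of the genes, left the 95% counting interval of the gene (or moved by 1.5-fold where it had no such interval). The number of higher genes was 1397 with 1 FPKM needed in both libraries, 1491 with 5 FPKM in either, 3913 with every gene above 0 kept, and 1033 at 4-fold, where 614 were lower. The snoRNA median was 4.41, 10.88 and 0.63 with a pseudocount of 1 FPKM, one of 0.01 FPKM and 1 FPKM needed in both, and 8.67 over loci with no other gene. Metallothioneins had -0.52 with 5 FPKM in either, with every gene above 0 and with loci of at least 1000 bp, histones 0.0567 with such loci, and p53 targets -0.75 with 5 FPKM in either. Other centrings moved all genes by the same amount: 0.28 without any, 0.10 with genes of at least 10 FPKM and -0.24 with the reference genes. Ratios just past 2-fold, such as those of WT1, PSPH and MYB below and PYCR1, PPP1R15A, ALDOA and HSP90AB1 above, are within it without centring or with the reference genes. GC-bin centring and the restriction to loci with no other gene were chosen after seeing the data. With GC-bin centring 1962 of the 2406 higher genes with a transcript model remained higher, and 1557 of 1746 lower ones remained lower. No paired analysis was possible because each side has 1 library and the labels give no shared replicate numbers. The cause of these shifts was not tested beyond the filter or centring that made them.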

Other observations

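Further groups of the same comparison were described in the same way, as values without an explanation. Sterol and fatty acid synthesis genes gave 6 higher and 2 lower of 33 (median 0.09); FASN, fatty acid synthase, had 36.9 FPKM in PcTF and 7.79 FPKM in mock cells (1.94). Of 31 proteasome subunits 6 were higher, a share under the 21.8% of all kept genes, and 1 was lower (median 0.32, 0.0797 with centring on the reference genes); the lower one was PSMD7 at 114 FPKM in PcTF and 297 FPKM in mock cells (-1.66). Mediator and general transcription factor genes, partners of activation domains such as VP64, had a median near 0, with 9 of 65 higher and 5 lower (median -0.01). Zinc finger genes named ZNF, many of them repressors, gave 50 higher and 85 lower of 361 (median -0.30).

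Cancer-testis genes, germline genes that K562 expresses, went both ways. The MAGE-A members MAGEA6 and MAGEA3 had 55.3 FPKM in PcTF and 6.00 FPKM in mock cells (2.90) and 44.3 FPKM in PcTF and 7.44 FPKM in mock cells (2.27), a pair of close copies. SSX1 and PAGE5 were lower, at 276 FPKM in PcTF and 547 FPKM in mock cells (-1.27) and 148 FPKM in PcTF and 280.3 FPKM in mock cells (-1.21). PRAME, the most abundant, was within 2-fold at 807 FPKM in PcTF and 1067 FPKM in mock cells (-0.69), and the list as a whole had 6 higher and 4 lower of 18. Immediate early genes had 3 higher and 1 lower of 16; JUNB had 8.45 FPKM in PcTF and 1.46 FPKM in mock cells (2.17), DUSP1 11 FPKM in PcTF and 0.821 FPKM in mock cells (3.30) and JUND 14.8 FPKM in PcTF and 45.6 FPKM in mock cells (-1.90). The 20 reference genes had a median of 0.24, with 3 higher and 4 lower.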
